A study of Rattus norvegicus with 32 samples.

Results

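The comparison described here sets hippocampi of iron-deficient (ID) rat pups that had received intranasal insulin against hippocampi of iron-sufficient (IS) pups that had not, and so covers the genes that were still different, or had become different, from the healthy control after treatment. Members were chosen by label: the 8 libraries of insulin-treated iron-deficient pups (ID insulin) and the 8 of untreated iron-sufficient pups (IS control), 16 of the 32 libraries of the series. All pups were wild type, and RNA came from one hippocampus per pup. Iron deficiency was produced by a purified maternal diet with 3 to 6 ppm iron from gestational day 3 to postnatal day 7, and insulin was given 2 times a day from postnatal day 8 to 21. The other libraries, from 9 untreated ID pups (ID control) and 7 insulin-treated IS pups (IS insulin), entered the same fit and are given for reference. The labels do not say whether the controls received a vehicle, which or how many litters the pups came from, or the insulin dose.

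The compared groups differ in both diet and treatment, so a difference between them cannot be assigned to either from this comparison alone. The labels give postnatal day 7 or 21 as the day of collection without tying it to a pup. Insulin continued to day 21, so the treated pups were taken then, and age and group cannot be told apart if the controls were taken at day 7. Myelin transcripts accumulate steeply between these days in rat brain. Myelin basic protein, Mbp, had 6635 to 9469 CPM, the count per unit of library size, in the IS control libraries (median 8334) and 6926 to 13591 CPM in ID insulin (median 7999), and the groups overlapped. Of 25 myelin and oligodendrocyte genes 1 was called, the lower Mal, a share near the 3.35% of all genes tested. Their median log2 fold change was 0.09. A first number in the sample titles, of unstated meaning, was 71 for all IS control and 73 for all ID insulin libraries, so it cannot be told apart from the group either.

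Neurons and glia take up iron as transferrin through the transferrin receptor, and the receptor's mRNA is stabilised by iron regulatory proteins when cytosolic iron is scarce. The hippocampus develops rapidly around birth in rodents and is among the brain regions sensitive to early iron deficiency. Insulin reaches the brain from the nasal cavity and acts on insulin and IGF receptors there, which signal through insulin receptor substrates, PI3 kinase, Akt and mTOR.

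Total counts were 19619345 to 27646299 in IS control and 20329153 to 26782287 in ID insulin libraries. Hippocampal identity was present in both groups: Prox1, the transcription factor of dentate granule cells, had a median of 109 CPM in IS control and 99.0 CPM in ID insulin. Y-linked transcripts passed 10 CPM in 4 of 8 libraries of each group. ID insulin replicate 3 stood apart: the chi-square between it and each other ID insulin library was 47.8 to 106 per gene, and 32.2 at most among those other libraries. ID insulin replicate 5 had the highest summed level of thalamus and habenula genes and replicate 8 that of hypothalamic genes. Counts are therefore also given without replicates 3 and 5. In bulk tissue, fewer cells of a type and less RNA per cell cannot be told apart.

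Of 15439 genes with enough counts to be tested, 517 (3.35%) had an adjusted p under 0.05 in edgeR's quasi-likelihood test and are referred to as called. Of these, 320 (2.07% of the genes tested) were higher and 197 (1.28%) lower in ID insulin. Most differences were small: 297 of the 517 were under 1.5-fold, and 115 reached 2-fold, 93 of them higher and 22 lower. DESeq2 called 862 genes, 445 higher and 417 lower, so the size of the excess of higher over lower calls depended on the method. It also depended on the libraries. Without ID insulin replicates 3, 5 and 8, an omission chosen after the data were seen, edgeR called 64 higher and 69 lower. The median log2 fold change over all genes tested was 0.01. In the same fit, ID control differed from IS control in 45 genes (0.291%), ID insulin from ID control in 589 (3.82%) and IS insulin from IS control in 19 (0.123%). These comparisons share libraries, and their values for single genes are therefore set side by side below. Without ID insulin replicates 3 and 5, 182 genes were called, 166 of which were among the 517. Without ID insulin replicate 3 alone the count was 285, without IS control replicate 7 it was 240, without IS control replicate 8 it was 285, and without ID insulin replicate 7 it was 902.

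**Figure D1:**
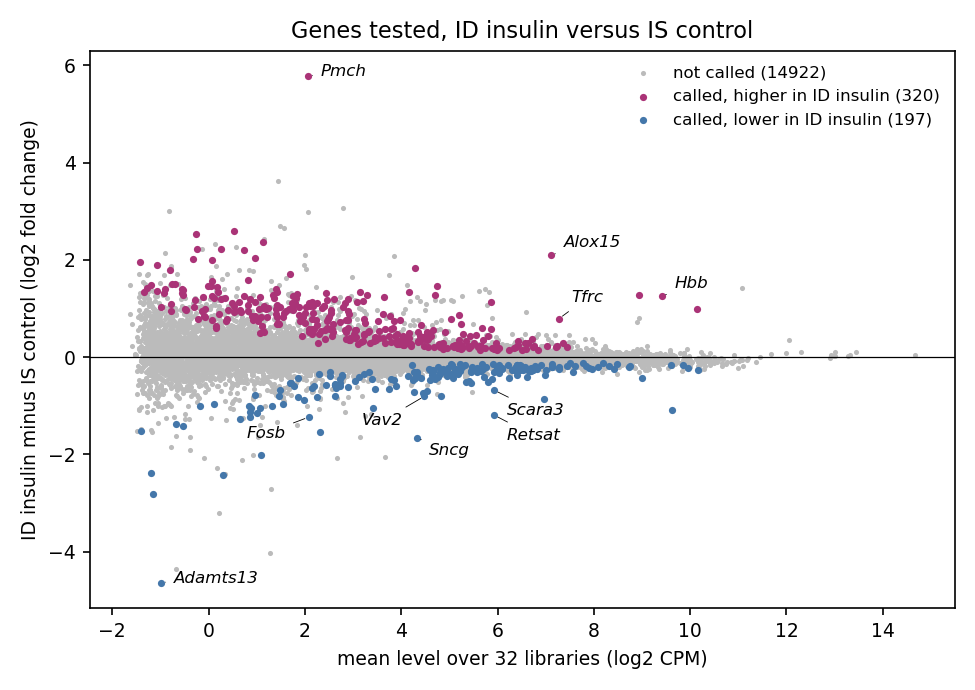
Each point is 1 of the 15439 genes tested, by its mean level over the 32 libraries (log2 CPM) and the log2 fold change of ID insulin over IS control. The 320 genes called higher and 197 called lower are coloured; most sit close to 0, and Pmch, with a log2 fold change of 5.78, was high in a single library.

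Groups that do not overlap at all are another description beside a call, and not every such gene was called. All 8 ID insulin libraries lay above every IS control library for 33 genes (0.214%), of which 29 were called, and below every IS control library for 21 genes (0.136%), of which 18 were called. Tfrc, Alox15, Cfap65, Rgs22 and Per3 were among the former, and Scara3, Vav2, Retsat, Itprid1 and Ndrg1 among the latter.

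Tfrc, the transferrin receptor, had the lowest adjusted p of all genes. Its level was 106 to 127 CPM in IS control (median 118) and 173 to 225 CPM in ID insulin (median 205), so the lowest treated pup lay above the highest control. The means were 117 ± 6.55 and 203 ± 17.4 CPM (SD, n = 8 each), a log2 fold change of 0.79 ± 0.07 (SE, adjusted p = 1.35e-08). ID control pups stood between them at 169 ± 19.7 CPM (SD, n = 9), and IS insulin pups at 127 ± 17 CPM (SD, n = 7). Against IS control the untreated ID pups differed by 0.53 (adjusted p = 0.00012), and treated ID pups were a further 0.26 above untreated ones (adjusted p = 0.0243). Of 25 tested genes of iron uptake, storage and export, Tfrc was the single one called, and the median log2 fold change of the list was 0.06. Ferritin heavy chain, Fth1, which stores iron, had a median of 810 CPM in IS control and 802 CPM in ID insulin. Slc11a2, the DMT1 iron importer, was at 0.14 ± 0.04 (SE, adjusted p = 0.0597). Fech, which inserts iron into heme, was called higher by 0.17 ± 0.05 (adjusted p = 0.0457), and the call was lost under several settings. It was the 1 called of 23 genes of iron-sulfur assembly and heme synthesis. For this list and that of iron uptake, storage and export the share called is near the 3.35% of all genes tested.

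4 further named genes were lower than in IS control in ID pups both with and without insulin. Scara3, a scavenger receptor induced by oxidative stress, ran from 60.2 to 88.1 CPM in IS control (median 73.3) and from 36.4 to 53.4 CPM in ID insulin (median 47.8). All treated pups lay below all controls, by a log2 fold change of -0.68 ± 0.08 (SE, adjusted p = 4.60e-06), beside -0.49 in untreated ID pups (adjusted p = 0.0013). Vav2, a guanine nucleotide exchange factor, ran from 23.8 to 37.0 CPM in IS control (median 30.9) and from 15.6 to 19.2 CPM in ID insulin (median 17.4). It also separated the groups completely, at -0.80 ± 0.11 (SE, adjusted p = 0.000173), and untreated ID pups had nearly the same value, -0.78 (adjusted p = 0.00023). Low Vav2 was not confined to ID pups. IS insulin pups ran from 15.2 to 31.5 CPM, and the lowest, replicate 1, lay below every ID insulin library. Orai2, a subunit of store-operated calcium channels, overlapped between groups, with medians of 117 CPM in IS control and 87.3 CPM in ID insulin. Its log2 fold change was -0.42 ± 0.10 with insulin (SE, adjusted p = 0.0246) and -0.58 without (adjusted p = 0.0035), and the call with insulin was lost without IS control replicate 8 or ID insulin replicate 3 (the adjusted p without replicates 3 and 5 was 0.107). Pcdhb6, a protocadherin, had medians of 2.36 CPM in IS control and 1.32 CPM in ID insulin. It was called at -1.16 ± 0.34 with insulin (SE, adjusted p = 0.0487), a call lost under several settings, and at -1.69 without (adjusted p = 0.024).

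Slc39a12, which encodes the zinc importer ZIP12, differed between untreated ID and IS pups and not detectably between treated ID and IS pups. It ran from 2.97 to 38.4 CPM in IS control (median 18.2), from 2.11 to 3.95 CPM in ID control (median 2.84) and from 19.4 to 43.2 CPM in ID insulin (median 34.8). Every treated ID pup exceeded every untreated one, by 3.47 on the log2 scale (adjusted p = 2.6e-05). Against IS control the treated pups differed by 0.66 ± 0.36 (SE, adjusted p = 0.301). In IS control and IS insulin its levels spread widely between pups. IS control replicate 6 (2.97 CPM) and IS insulin replicate 4 (3.45 CPM) lay within the ID control range. IS insulin replicate 7 (1.74 CPM) lay below it. None of the 17 zinc transporters tested was called by edgeR, DESeq2 or limma voom, and 4 had an unadjusted p under 0.05.

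Prss12, which encodes neurotrypsin, a protease that cleaves agrin at synapses, was lower in treated ID pups than in IS control. It was 6.30 to 15.9 CPM in IS control (median 11), 9.86 to 20.4 CPM in ID control (median 17) and 4.33 to 6.69 CPM in ID insulin (median 4.64). IS insulin pups ran from 4.04 to 12.9 CPM. Of the 8 treated ID pups, 6 lay below every IS control pup (log2 fold change -1.05 ± 0.20, SE, adjusted p = 0.00413), whereas untreated ID pups were at 0.62 (adjusted p = 0.11). Retsat, retinol saturase, was 52.3 to 98.0 CPM in IS control and 23.3 to 48.7 CPM in ID insulin, without overlap (-1.19 ± 0.23, SE, adjusted p = 0.00413). In ID control it ranged from 27.4 to 79.2 CPM, reaching into both groups, with no library between 36.3 and 68.3 CPM. IS insulin pups ran from 44.5 to 113 CPM.

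**Figure D2:**
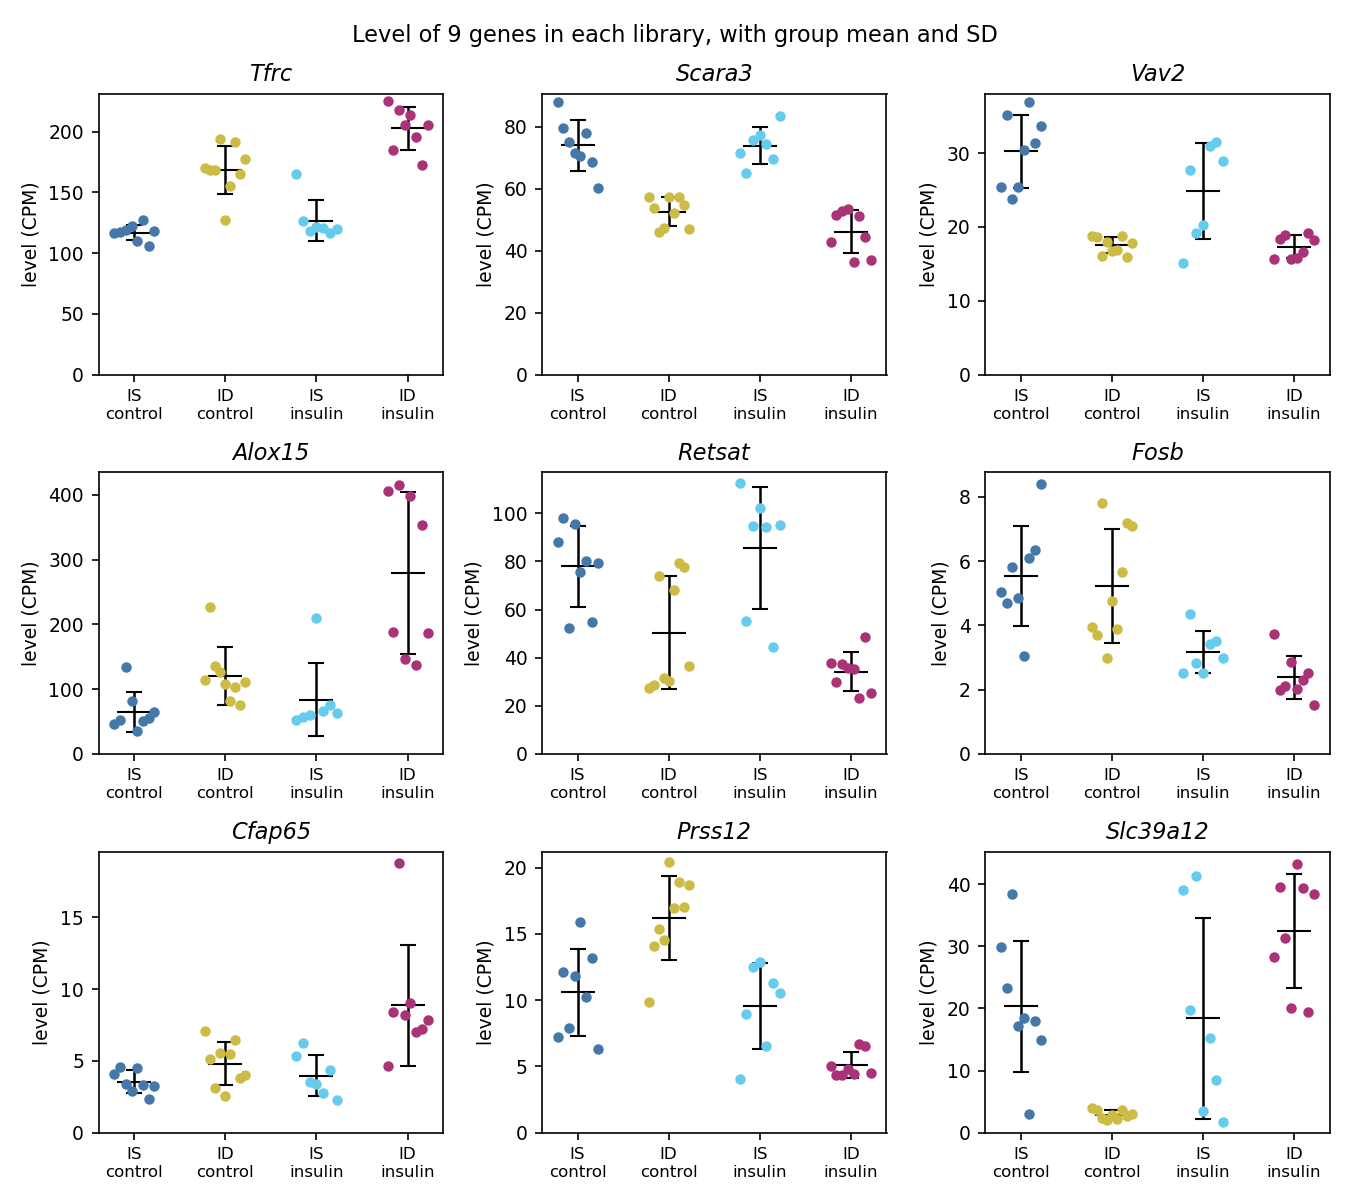
Level of 9 genes in CPM in each of the 32 libraries (points) by group, with the mean (horizontal bar) and SD (whisker); axes start at 0. Tfrc, Scara3, Vav2, Alox15, Retsat and Cfap65 do not overlap between IS control and ID insulin, and Slc39a12 is at 2.11 to 3.95 CPM in every ID control library.

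Of 9 tested genes of red blood cells 5 were called, all higher in ID insulin, beside 3.35% called of all genes tested. The median log2 fold change of the list was 1.01, against 0.01 over all genes tested. Alox15, a lipoxygenase abundant in reticulocytes, ran from 35.6 to 134 CPM in IS control (median 53.4) and from 137 to 415 CPM in ID insulin (median 271). The groups did not overlap, and the log2 fold change was 2.1 ± 0.31 (SE, adjusted p = 0.000297). Untreated ID pups were at 0.88 (adjusted p = 0.2). Alas2, the erythroid enzyme that starts heme synthesis, had medians of 14.0 and 45.1 CPM (1.46 ± 0.25, SE, adjusted p = 0.0019), and 6 of 8 treated pups exceeded every control. Beta globin Hbb, alpha globin Hba-a2 and the anion exchanger Slc4a1 were called at 1.25, 0.99 and 1.33; globin genes have near-identical copies between which reads may be split. The summed level of the list was 814 to 2702 CPM in IS control (median 1317) and 1195 to 4996 CPM in ID insulin (median 3031). Without ID insulin replicates 3 and 5, 2 members were called and the median was 0.95. How far blood left in the vessels took part was not tested.

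Motile cilia are the beating cilia of ependymal cells that line the ventricles. Of 14 tested genes of their list 9 were called, all higher, with a median log2 fold change of 0.86, beside 3.35% called of all genes tested. By symbol, 7 of 10 axonemal dynein heavy chains (Dnah), the motors of the cilium, were higher and 1 was lower, and 9 of 24 cilia and flagella associated genes (Cfap) were higher and 0 lower (medians 0.86 and 0.68); these symbol groups were formed after their values were seen. Cfap65 ran from 2.33 to 4.59 CPM in IS control (median 3.36) and from 4.62 to 18.8 CPM in ID insulin (median 8.03). The groups did not overlap (1.32 ± 0.23, SE, adjusted p = 0.00192). Rgs22, a regulator of G protein signalling that stands on no list, did not overlap either, with medians of 5.46 and 12.4 CPM (1.34 ± 0.26, SE, adjusted p = 0.00413). Dnah6 was above every control in 7 of 8 treated pups (1.04 ± 0.21, SE, adjusted p = 0.00559). Cfap100 (1.4), Spag8 (1.29) and Ccdc153 (0.97) were called as well. Dnah8 went the other way, from a median of 7.05 CPM to 2.20 CPM (-1.54 ± 0.28, SE, adjusted p = 0.00284). ID insulin replicate 3 had the highest summed level of the cilium list, 250.4 CPM, against 82.5 CPM in the lowest library of its group and 40.1 to 94.5 CPM in IS control. Without replicates 3 and 5, 1 of the 14 list members was called, with a median of 0.64, and 4 dynein heavy chains and 3 Cfap genes were. Without IS control replicate 7, 2 of the 14 were called.

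The choroid plexus, which secretes cerebrospinal fluid, lies beside the ependyma. Its list differed widely within groups, at 155 to 4202 CPM in IS control (median 561) and 506 to 7384 CPM in ID insulin (median 4204). None of its 16 tested genes was called by edgeR (7 had an unadjusted p under 0.05; DESeq2 called 0 and limma voom 2), and their median log2 fold change was 1.17. Transthyretin, Ttr, was at 8.38 to 3024 CPM in IS control and 277 to 5561 CPM in ID insulin (1.42 ± 0.94, SE, adjusted p = 0.408). The part of tissue taken with the hippocampus in the cilium and red blood cell differences was not tested. With the mean levels of the choroid plexus, red blood cell, meninges and thalamus lists as covariates, 4 genes were called in all, including Tfrc, Alox15 and Pmch. Some genes that lost the call kept most of their log2 fold change. Vav2 was at -0.79 (-0.80 without covariates) and Retsat at -1.14 (-1.19). Others moved closer to no difference, such as Cfap65 at 0.65 (1.32 without covariates) and Scara3 at -0.45 (-0.68).

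**Figure D3:**
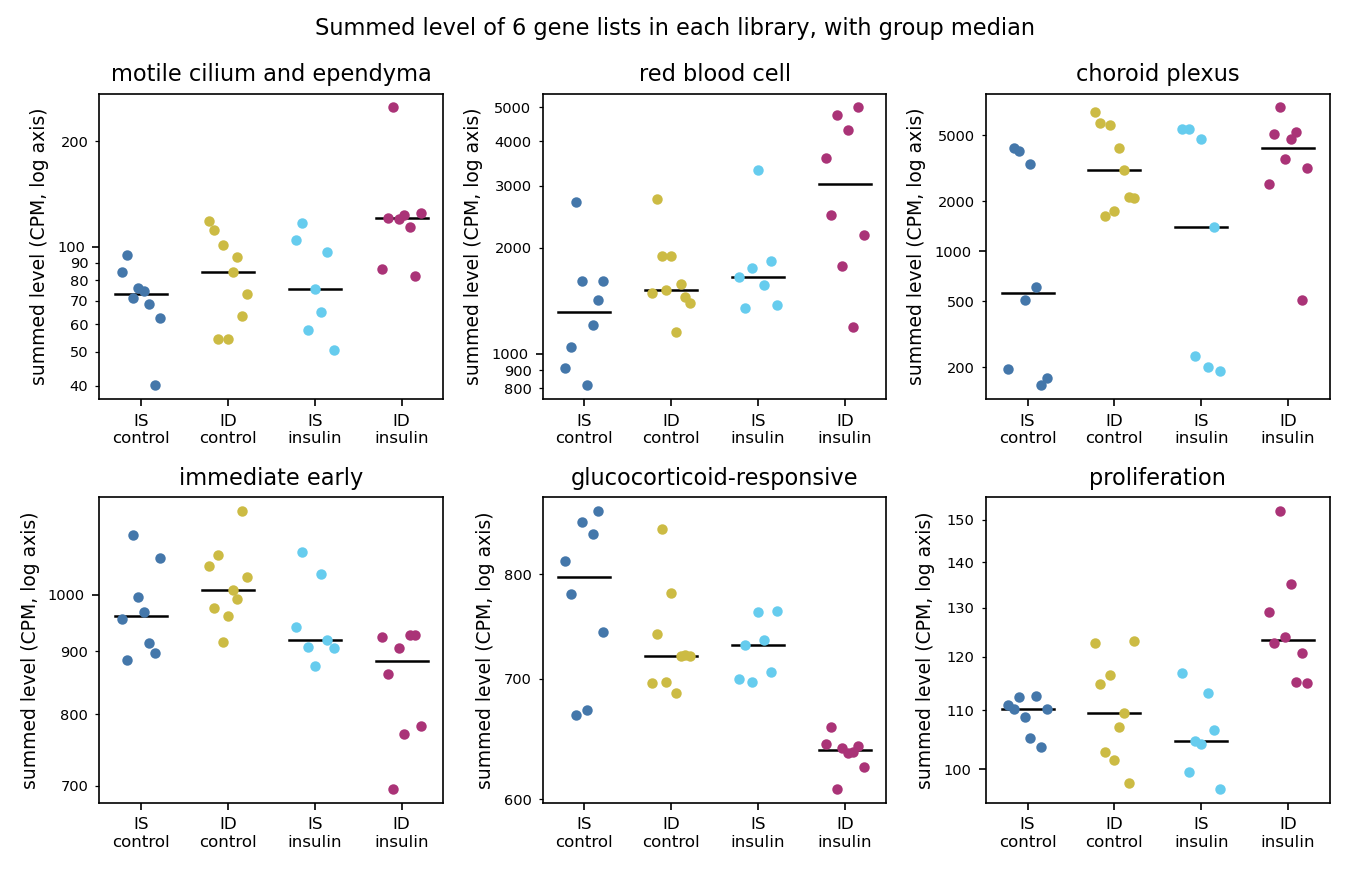
Summed CPM of 6 gene lists in each library (points) by group, on log axes, with the group median (bar). For the cilium, red blood cell and choroid plexus lists the 2 groups overlap; for the glucocorticoid-responsive list every ID insulin library is below every IS control library, and for the proliferation list above.

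Promoters of members that moved together are shown because motile cilium genes are commonly driven through X boxes, bound by RFX factors, erythroid genes through GATA sites, and immediate early genes through the CArG box, bound by serum response factor. Sequences are from RefSeq (GRCr8), the 250 bases before the start site on the gene's strand; 47 of the 63 named genes had an entry. The X box was searched as GTNNCC, then 0 to 3 bases, then GGNNAC, a pattern that reads alike on both strands. It was found in 3.07% of 33469 promoters, and in 4 of 20 called and 2 of 17 uncalled cilium genes (list, Dnah and Cfap symbols) with an entry. The called ones were Cfap206, Cfap43, Dnah12 and Dnah2. The GATA pattern AGATAA, on either strand, was found in 10.3% of promoters and in Alas2, 1 of 3 called red blood cell genes with an entry, and in Hemgn, 1 of 3 uncalled ones. The CArG box was found in 1.5% and in Egr2, 1 of 4 called immediate early genes with an entry, and in 2 of 17 uncalled ones. Capitals mark the match; a match is a description of the letters.
Alas2: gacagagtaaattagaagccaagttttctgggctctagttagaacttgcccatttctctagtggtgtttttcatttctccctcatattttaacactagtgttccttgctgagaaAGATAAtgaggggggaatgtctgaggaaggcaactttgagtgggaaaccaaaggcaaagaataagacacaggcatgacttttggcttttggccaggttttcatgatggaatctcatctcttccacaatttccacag
Cfap206: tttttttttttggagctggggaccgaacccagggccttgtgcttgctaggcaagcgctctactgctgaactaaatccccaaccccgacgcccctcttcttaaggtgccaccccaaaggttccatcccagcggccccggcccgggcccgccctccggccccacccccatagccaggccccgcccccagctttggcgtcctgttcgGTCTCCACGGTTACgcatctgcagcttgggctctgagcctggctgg
Dnah12: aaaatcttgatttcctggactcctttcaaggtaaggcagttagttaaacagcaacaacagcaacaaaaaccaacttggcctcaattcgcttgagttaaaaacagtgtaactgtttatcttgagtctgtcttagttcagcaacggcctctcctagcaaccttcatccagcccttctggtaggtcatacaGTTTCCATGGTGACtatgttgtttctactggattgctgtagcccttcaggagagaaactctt
Dnah2: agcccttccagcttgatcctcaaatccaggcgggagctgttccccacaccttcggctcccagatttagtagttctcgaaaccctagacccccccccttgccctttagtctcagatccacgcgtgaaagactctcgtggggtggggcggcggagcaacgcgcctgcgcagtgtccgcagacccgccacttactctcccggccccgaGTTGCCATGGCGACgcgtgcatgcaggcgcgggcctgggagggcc
Egr2: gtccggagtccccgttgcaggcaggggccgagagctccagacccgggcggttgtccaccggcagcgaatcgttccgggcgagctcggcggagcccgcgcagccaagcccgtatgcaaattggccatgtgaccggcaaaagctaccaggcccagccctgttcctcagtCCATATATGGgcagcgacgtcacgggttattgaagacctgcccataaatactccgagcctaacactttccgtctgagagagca
Dnah12 had medians of 8.82 CPM in IS control and 17.1 CPM in ID insulin (log2 fold change 1.23), Dnah2 5.58 and 9.22 CPM (0.77), and Cfap206 1.02 and 2.46 CPM (1.19). In the 3 cilium promoters shown, the X box lies between 62 and 32 bases before the start site.

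Immediate early genes are transcribed by neurons and glia within minutes of stimulation. Of 30 tested, 6 were called, all lower in ID insulin, beside 3.35% called of all genes tested. The median log2 fold change of the list was -0.23. Fosb, a subunit of the AP-1 factor, ran from 3.04 to 8.41 CPM in IS control (median 5.42) and from 1.52 to 3.72 CPM in ID insulin (median 2.20). Of 8 treated pups 7 lay below every control (-1.23 ± 0.21, SE, adjusted p = 0.00167). Untreated ID pups were at -0.08 (adjusted p = 0.91), and IS insulin pups at -0.81 (adjusted p = 0.089). Fos, another subunit of AP-1, had medians of 12 and 7.84 CPM (-0.65 ± 0.16, SE, adjusted p = 0.0195) and Egr2 5.09 and 2.58 CPM (-0.81 ± 0.23, SE, adjusted p = 0.0464). Fosl2, Egr3 and Klf4 were called at -0.42, -0.31 and -0.45. Arc and Npas4, markers of recent neuronal activity, were not called, at -0.24 (adjusted p = 0.388) and -0.62 (adjusted p = 0.187). Without ID insulin replicates 3 and 5, 1 of the 30 was called, Fosb (adjusted p = 0.00873).

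Of 18 tested genes that glucocorticoid hormone induces, 6 were called, all lower, and all 18 had a negative fold change (median -0.31). Over all genes tested, 3.35% were called and 53.6% had a log2 fold change above 0. Fkbp5, the receptor's co-chaperone, ran from 51.1 to 80.5 CPM in IS control (median 64.2) and from 37.7 to 56.8 CPM in ID insulin (median 47.6). Of 8 treated pups 6 lay below every control (-0.51 ± 0.10, SE, adjusted p = 0.00441). Plin4, a lipid droplet protein, and Mt2A, a metallothionein, were called at -1.05 and -0.70. Per1, a circadian repressor that is also hormone-induced, was at -0.44 (adjusted p = 0.00786), while Per3, its clock paralog, was higher in every treated pup than in any control at 0.28 (adjusted p = 0.0129). Klf9 and Errfi1 were called at -0.27 and -0.31. The summed level of the list was 668 to 867 CPM in IS control and 608 to 658 CPM in ID insulin, without overlap. Without replicates 3 and 5, 4 of the 18 were called, with a median of -0.29. The time of day of collection is not given in the labels.

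Of 19 tested genes of cell division 1 was called, the kinetochore gene Cenpf (0.44 ± 0.12, SE, adjusted p = 0.0359), a call lost in 10 of 16 omissions of a single library. The share called is near the 3.35% of all genes tested. The fold changes of all 19 were positive (median 0.32), against 53.6% of all genes tested. Mki67, the marker of cycling cells, ran from 7.12 to 9.76 CPM in IS control and from 9.47 to 12 CPM in ID insulin, and 6 of 8 treated pups exceeded every control (0.33 ± 0.10, SE, adjusted p = 0.0529). The summed level was 104 to 113 CPM in IS control and 115 to 152 CPM in ID insulin. DESeq2 called 2 members and limma voom 0. Without replicates 3 and 5 edgeR called 0 and the median was 0.19.

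Of 38 tested genes of insulin, IGF and mTOR signalling Irs2 was the 1 called, a share near the 3.35% of all genes tested. Irs2, an insulin receptor substrate, ran from 95.2 to 105 CPM in IS control and from 64.6 to 97.3 CPM in ID insulin (-0.20 ± 0.05, SE, adjusted p = 0.0318). It was at -0.14 without replicates 3 and 5 (adjusted p = 0.0514) and at -0.17 without replicates 3, 5 and 8 (adjusted p = 0.0342). The insulin receptor Insr was at -0.02 ± 0.06 (SE, adjusted p = 0.864) and Igf1r at -0.17 ± 0.11 (SE, adjusted p = 0.408). Of 15 tested hypoxia-inducible genes, 1 was called higher, 1 lower and 13 were not called, beside 3.35% called of all genes tested. Their median log2 fold change was 0.03. Vegfa, an angiogenic factor, was the higher one at 0.29 ± 0.06 (SE, adjusted p = 0.00899). Ndrg1 was lower in every treated pup than in any control (-0.43 ± 0.08, SE, adjusted p = 0.00414). Gpd1, cytosolic glycerol-3-phosphate dehydrogenase, had medians of 160 and 89.2 CPM (-0.86 ± 0.15, SE, adjusted p = 0.00194). None of the genes of glycolysis (20), nuclear oxidative phosphorylation (72), mitochondrially encoded transcripts (13) or cholesterol synthesis (24) was called by edgeR, with medians of -0.08, 0.02, 0.04 and 0.05. At an unadjusted p under 0.05 there were 1, 6, 0 and 1 genes, and DESeq2 called 2 of the oxidative phosphorylation genes and limma voom 0 in all.

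Neuronal and glial genes showed scattered calls. Sncg, gamma-synuclein, ran from 8.05 to 36.1 CPM in IS control (median 27.9) and from 5.52 to 15.4 CPM in ID insulin (median 6.80), and 6 of 8 treated pups lay below every control (-1.66 ± 0.35, SE, adjusted p = 0.00778). Nrgn, the postsynaptic protein neurogranin, was the 1 called of 30 glutamatergic synapse genes (-0.26), and the call was lost in 11 of 16 omissions of a single library and without replicates 3 and 5 (-0.17, adjusted p = 0.207). Of these 30 genes 5 had a log2 fold change above 0, against 53.6% of all genes tested. Their median was -0.10, or -0.05 without replicates 3 and 5. At an unadjusted p under 0.05 there were 11, and DESeq2 called 3 and limma voom 1. Gjb6, an astrocyte connexin, was lower (-0.48 ± 0.11, SE, adjusted p = 0.0103) and the 1 called of 16 astrocyte genes, whose median was -0.04. For both lists the share called is near that of all genes tested. The growth factor Bdnf (-0.04), the kinase Camk2a (-0.17), the immature neuron marker Dcx (0.12) and the glucose transporter Slc2a1 (-0.24) were not called.

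**Figure D4:**
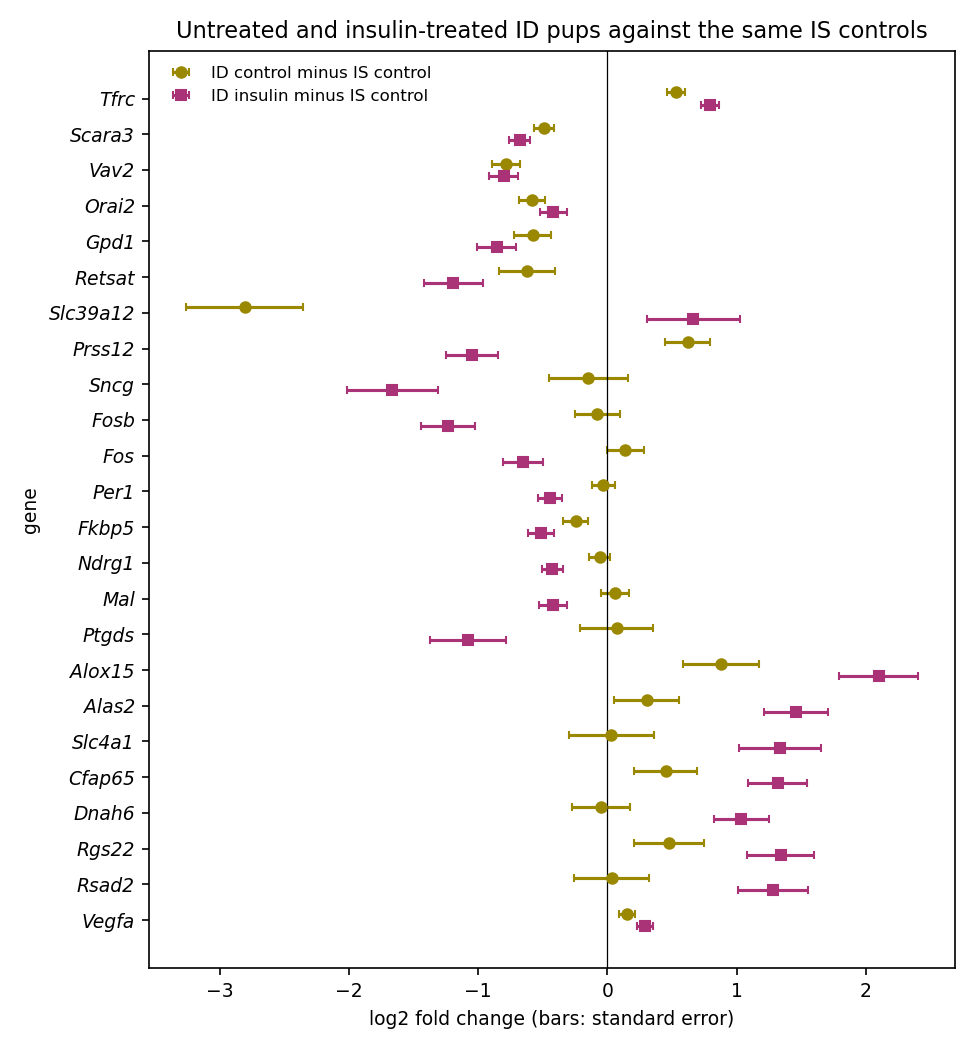
Log2 fold change with its standard error for 24 genes in untreated ID pups (circles) and in insulin-treated ID pups (squares), both against the same 8 IS control libraries, so the pairs share controls. Vav2 is at -0.78 and -0.80, Slc39a12 at -2.80 and 0.66, and Fosb at -0.08 and -1.23.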

How the data were processed

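RNA sequencing reads were counted per gene by the authors, and the deposited table holds raw counts, with no normalization. Per the submitters' processing notes, Trimmomatic (0.40), FastQC, HISAT2 (2.1.0), featureCounts and edgeR were used, with builds Rnor_6.0 and mm10; the role of each build, strand use and handling of multiply mapped reads are not given in the sources used here, which leaves genes that overlap, antisense partners and close copies uncertain.

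Counts were tested in edgeR (4.0.16, R 4.3.3): TMM, filterByExpr by group, and the quasi-likelihood F-test (two-sided) over all 32 libraries with 1 coefficient per group. Of 32883 genes, 15439 were tested, and p-values were Benjamini-Hochberg adjusted over all of them. CPM are scaled by TMM. Pups are replicates, and without stated litters p-values measure the spread between these samples. On simulated counts over 15439 genes for ID insulin versus IS control, 82.1% of 1.5-fold, 95.5% of 2-fold and 98.5% of 4-fold changes were called. The changed genes were drawn from those averaging at least 2 CPM, so these shares do not cover lower genes. Noise was independent between genes and libraries, so an outlying library or tissue taken along was not simulated.

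The comparison, gene lists and named genes were chosen with earlier results of these data known; the hypothalamus list and the Dnah and Cfap symbol groups were added after values were seen. The naming rule took called genes that had a symbol and averaged 1 or more on the log2 CPM scale: the 12 largest increases, the 12 largest decreases and, from each list, up to 2 by lowest adjusted p. A further 17 genes were named regardless of outcome. Other genes in the text illustrate a list and were chosen after their values were seen. Alternatives were DESeq2 (1.42.0), other size factors and filters, the compared groups alone, limma voom (3.58.1), a replicate block, covariates and libraries left out.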

Additional observations from a re-analysis of the deposited data

Results flagged for a closer look

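Of 126 combinations of a named gene and a group of 8, 18 had a library set apart from the others of its group by Dixon's criterion; chance sets apart about 1 in 20.

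In IS control replicate 3, 3 red blood cell genes were highest: Alox15 at 133.9 CPM (next 81.8), Alas2 at 32.1 CPM (next 21.4) and Slc4a1 at 28.8 CPM (next 16.9). P2ry12, a microglial receptor, was at 29.1 CPM in IS control replicate 2 (next 20.6).

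ID insulin replicate 3 was highest for Cfap65 (18.8 CPM, next 9.01), Rgs22 (24.6 CPM, next 16.4), Dnah6 (24.0 CPM, next 10.6), Ccdc153 (19.2 CPM, next 8.67), Aadat (2.93 CPM, next 1.47) and Mbp (13591 CPM, next 10076), and lowest for Irs2 (64.6 CPM, next 87.0). Dnah8 was at 4.56 CPM in replicate 7 (next 2.81).

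ID insulin replicate 8 was highest for Pmch, the hypothalamic peptide precursor, at 117.5 CPM (next 1.36), and for Trh at 22.1 CPM (next 9.64), the monoamine transporter Slc18a2 at 18.3 CPM (next 9.04) and Tac1 at 20.8 CPM (next 14.4). ID insulin replicate 5 was highest for Prkcd, a thalamic kinase, at 172.1 CPM (next 43.6) and for Grid2ip at 11.6 CPM (next 5.24). Pmch was not called without replicate 8. Of 16 omissions of a single library, Prkcd lost its call in 10 and Grid2ip in 4, the omission of replicate 5 among them for both. Of 11 thalamus and habenula genes, Prkcd and Patj were called, beside 3.35% called of all genes tested. Patj kept its call in each of those omissions, and both calls were lost without replicates 3 and 5 together, where the median log2 fold change of the list was 0.38, against 0.77 with them.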

How the results depend on the processing

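Against 517 genes called, DESeq2 gave 862, the compared groups alone 247, tissue list covariates 4, omission of ID insulin replicates 3 and 5 gave 182 and, chosen after the data were seen, omission of replicates 3, 5 and 8 gave 133. The replicate block on the second title number gave 380 genes, the other settings 456 to 648, and each library left out in turn gave 240 to 902. The main test did not use the second title numbers as pairs. Of these, 6 numbers are shared by both groups, the correlations of their deviations were 0.04 to 0.19 (1 of 6 over 0.1), and 1 IS control library correlated best with its own number. Litters are not stated, so these weak correlations do not settle whether the numbers pair the samples. Of 53 named genes called, 30 kept the call without each single library, and Tfrc and Alox15 kept it in all 12 alternatives as well. With tissue list covariates, among them the red blood cell list, Tfrc was at 0.65 and Alox15 at 0.86, against 0.79 and 2.1 without. Alox15 is itself a member of the red blood cell list, so its value in that setting is not independent of the covariate. Among named genes, changes of sign were as follows. Mbp was at -0.0126 with voom, -0.141 with tissue covariates, -0.0700 without replicates 3 and 5 and -0.0899 without 3, 5 and 8. Bdnf was at 0.0197, 0.00162, 0.0326 and 0.0527 in the same settings. Insr was at 0.0169 with the block. With tissue covariates Rsad2 was at -0.0212, Ptgds at 0.0610 and Gpx1 at -0.0128. Leaving out one library gave -0.0111 to 0.149 for Mbp, -0.0862 to 0.00601 for Bdnf and -0.0469 to 0.00578 for Insr. The cause was not tested. Simulated 1.5-fold changes were found less often than larger ones, so small differences may have been missed at this depth.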

Other observations

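Calls of ID insulin against IS control in other lists are to be read beside the 3.35% called of all genes tested. Of 13 tested microglia genes, P2ry12 was higher (0.49) and Tmem119 lower (-0.27), and the summed level was 345 to 391 CPM in IS control and 313 to 413 CPM in ID insulin. Of 10 hippocampal pyramidal cell genes, Coch (-0.73) and Pou3f1 (-0.35) were lower. The median log2 fold change of that list was -0.20, and 6 members had an unadjusted p under 0.05. DESeq2 called 4 of them and limma voom 1. Of 14 meninges and fibroblast genes, Aldh1a2, a retinoic acid synthesis enzyme, was lower (-0.72). Ptgds, the prostaglandin D synthase of meninges and oligodendrocytes, had medians of 886 CPM in IS control and 491 CPM in ID insulin (-1.08 ± 0.30, SE, adjusted p = 0.0366). Rsad2, an interferon-induced antiviral gene, was higher (1.28 ± 0.27, SE, adjusted p = 0.00786) and the 1 called of 30 interferon and antigen presentation genes. Slc22a2, an organic cation transporter, was lower (-2.02 ± 0.52, SE, adjusted p = 0.0287) at medians of 2.17 and 0.62 CPM. Dsp, a desmosomal protein found in dentate granule cells, was higher (0.90 ± 0.20, SE, adjusted p = 0.0121), with 4.19 to 6.41 CPM in ID insulin and 1.36 to 5.40 CPM in IS control, and was the 1 called of 9 dentate granule cell genes (median -0.03, 4 of 9 above 0). Gpx1, a glutathione peroxidase, was higher (0.47 ± 0.13, SE, adjusted p = 0.0414) and the 1 called of 16 antioxidant and ferroptosis defence genes. For the interferon and antioxidant lists the share called is near that of all genes tested. Of 16 omissions of a single library, the call was lost in 13 for Coch, 12 for Gpx1, 11 for Pou3f1 and Aldh1a2, 9 for Tmem119 and 8 for Ptgds. Without ID insulin replicates 3 and 5, these 6 and P2ry12, Rsad2 and Slc22a2 were not called. The hypothalamic peptide genes Hcrt (2.54) and Trh (2.36) were called with Pmch, and all 3 had medians under 2 CPM in both groups. Without ID insulin replicate 8 all 3 lost their calls, and Trh was at 0.10 without replicates 3, 5 and 8 (adjusted p = 0.946).

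Adamts13, the protease that cleaves von Willebrand factor, was below every IS control library in all 8 ID insulin libraries at a low level: 0.290 to 1.38 CPM in IS control and 0 to 0.0921 CPM in ID insulin, with 0.356 CPM on average in ID control. It was chosen after its values were seen, and its fitted fold change depends on the prior count.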
